A study of Rattus norvegicus with 8 samples.

Results

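Tubulins and microtubule-associated proteins were compared between the orbital and the global layer of extraocular muscle, which turns the eye, in adult rats. The members were named beforehand as 8 genes, with earlier results of the layer difference known: the beta tubulins Tubb6, Tubb5 and Tubb3, the alpha tubulins Tuba1a and Tuba4a, and the microtubule-associated proteins Map2, Map4 and Map1b. Every probe set of the array annotated to exactly 1 of these symbols was taken, which gave 12 probe sets for 7 of the 8 genes, out of 10411 genes with a probe set of their own. Tuba1a had 0 such probe sets: its 1 probe set is also annotated to Tuba1b and Tuba1c, so no level is given for it. Since the members were chosen on the comparison described here, their levels and layer differences are a description and carry no test.

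The orbital layer is the part of the muscle towards the bony orbit and the global layer the part towards the eyeball. Tissue of each layer was cut from muscle of adult rats by laser microdissection, and its RNA was amplified and hybridised to 1 Affymetrix RAE230A array per capture, with 4 captures of the orbital and 4 of the global layer. The labels give no strain, sex, genotype or treatment and do not tie captures to animals, so p-values measure only the spread between these captures and are too small if captures share an animal. A capture holds whole tissue, in which fewer cells of a type and less RNA per cell cannot be told apart. The median intensity was 58.8 to 66.3 on the 8 arrays. The Gapdh 3′ to 5′ ratio, which rises as RNA shortens, was 5.81 to 12.9 in the orbital and 5.35 to 6.47 in the global captures, and that of beta-actin 7.87 to 9.16 in the orbital and 7.69 to 10.7 in the global captures. All 12 genes of a list of skeletal muscle fibre markers were measured, and their summed intensity was 59173 to 84062 in the orbital and 65929 to 93666 in the global captures. Of these 12, Mb rose, Pvalb and Ttn fell and 9 did not pass (limma, adjusted p under 0.05), with 7 at an unadjusted p under 0.05 and a median log2 difference of -0.39, orbital minus global.

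Microtubules are hollow polymers of alpha and beta tubulin dimers. Each tubulin is made from several genes whose products differ mainly in their acidic tails, where motors and associated proteins bind. In skeletal muscle fibres microtubules form a lattice beneath the membrane and between the myofibrils, grown from the nuclear envelope and Golgi elements rather than from 1 centrosome, and this lattice positions nuclei and mitochondria. Microtubule-associated proteins bind along the polymer and stabilise or bundle it. Map2 and Map1b are best known from neurons, and Map4 is the widely expressed relative of Map2, with an isoform that organises microtubules in muscle.

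The windows around the starts of Tubb6 and Tubb5 are shown so that the tubulin with the largest layer difference among the members, Tubb6, can be set beside the beta tubulin of nearly all cells, Tubb5. Each window runs 5′ to 3′ from 250 bases before to 50 bases from the start of the gene, on the plus strand of GRCr8, and both come from RefSeq. Capitals mark the E-box, CANNTG, the letters that bHLH factors such as the myogenic regulators read. The window of Tubb6 is chr18:63213037-63213336 and that of Tubb5 is chr20:2917327-2917626.
Tubb6: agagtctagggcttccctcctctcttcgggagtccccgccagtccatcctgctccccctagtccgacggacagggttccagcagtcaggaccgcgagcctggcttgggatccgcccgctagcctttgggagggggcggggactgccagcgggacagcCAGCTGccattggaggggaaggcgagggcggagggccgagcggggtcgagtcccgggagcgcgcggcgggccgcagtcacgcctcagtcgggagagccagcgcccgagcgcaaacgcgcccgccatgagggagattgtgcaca
Tubb5: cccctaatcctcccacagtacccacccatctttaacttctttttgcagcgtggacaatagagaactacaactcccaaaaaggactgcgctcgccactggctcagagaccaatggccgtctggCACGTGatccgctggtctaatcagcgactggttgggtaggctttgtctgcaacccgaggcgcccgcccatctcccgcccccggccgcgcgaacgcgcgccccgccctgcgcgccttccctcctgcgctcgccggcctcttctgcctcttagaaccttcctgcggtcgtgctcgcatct
Each window held 1 E-box (CAGCTG in Tubb6 and CACGTG in Tubb5), and 72.1% of 33469 windows of the same length held at least 1 on either strand. Each also held 1 CCAAT and 3 GGGCGG matches, counted on both strands, where 37.5% and 33.1% of all windows held at least 1, and neither held TATAAA, which 14.2% of all windows held. The 2 windows thus held the same number of each motif. GC made up 70.7% of the Tubb6 and 62.3% of the Tubb5 window, against a median of 51.7% over all windows. A match is a description of the letters and not of a bound factor. RefSeq windows were found for 7 of the 8 members, all but Map4. That of Map2 is not shown because the start used for it lies inside the annotated gene.

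Among the members, Tubb6 and 1 probe set of Map2 lay higher in every orbital capture than in any global one. Of the 8 member probe sets past the intensity filter, these 2 lay past the threshold of the fit across all probe sets (limma, adjusted p under 0.05) as higher in the orbital layer, and 0 as lower. This count is no test of the members, which were chosen on the same contrast, and Tubb6 came past the filter through its orbital level alone. Over all 9520 probe sets tested, 7.41% passed in either direction, 3.91% as higher and 3.50% as lower in the orbital layer. The layers did not overlap for 14.1%, with the orbital layer higher for 7.31% and lower for 6.75%. Nothing is read from the members' count beside these shares. The other 6 tested probe sets, of Tuba4a, Tubb5, Map4 and Map1b, overlapped between the layers. The log2 differences below are orbital minus global on log2(intensity + 1), with the standard error (SE) of that fit. Their median was 0.26 over the 8 tested member probe sets and 0.02 over all tested probe sets.

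**Figure D1:**
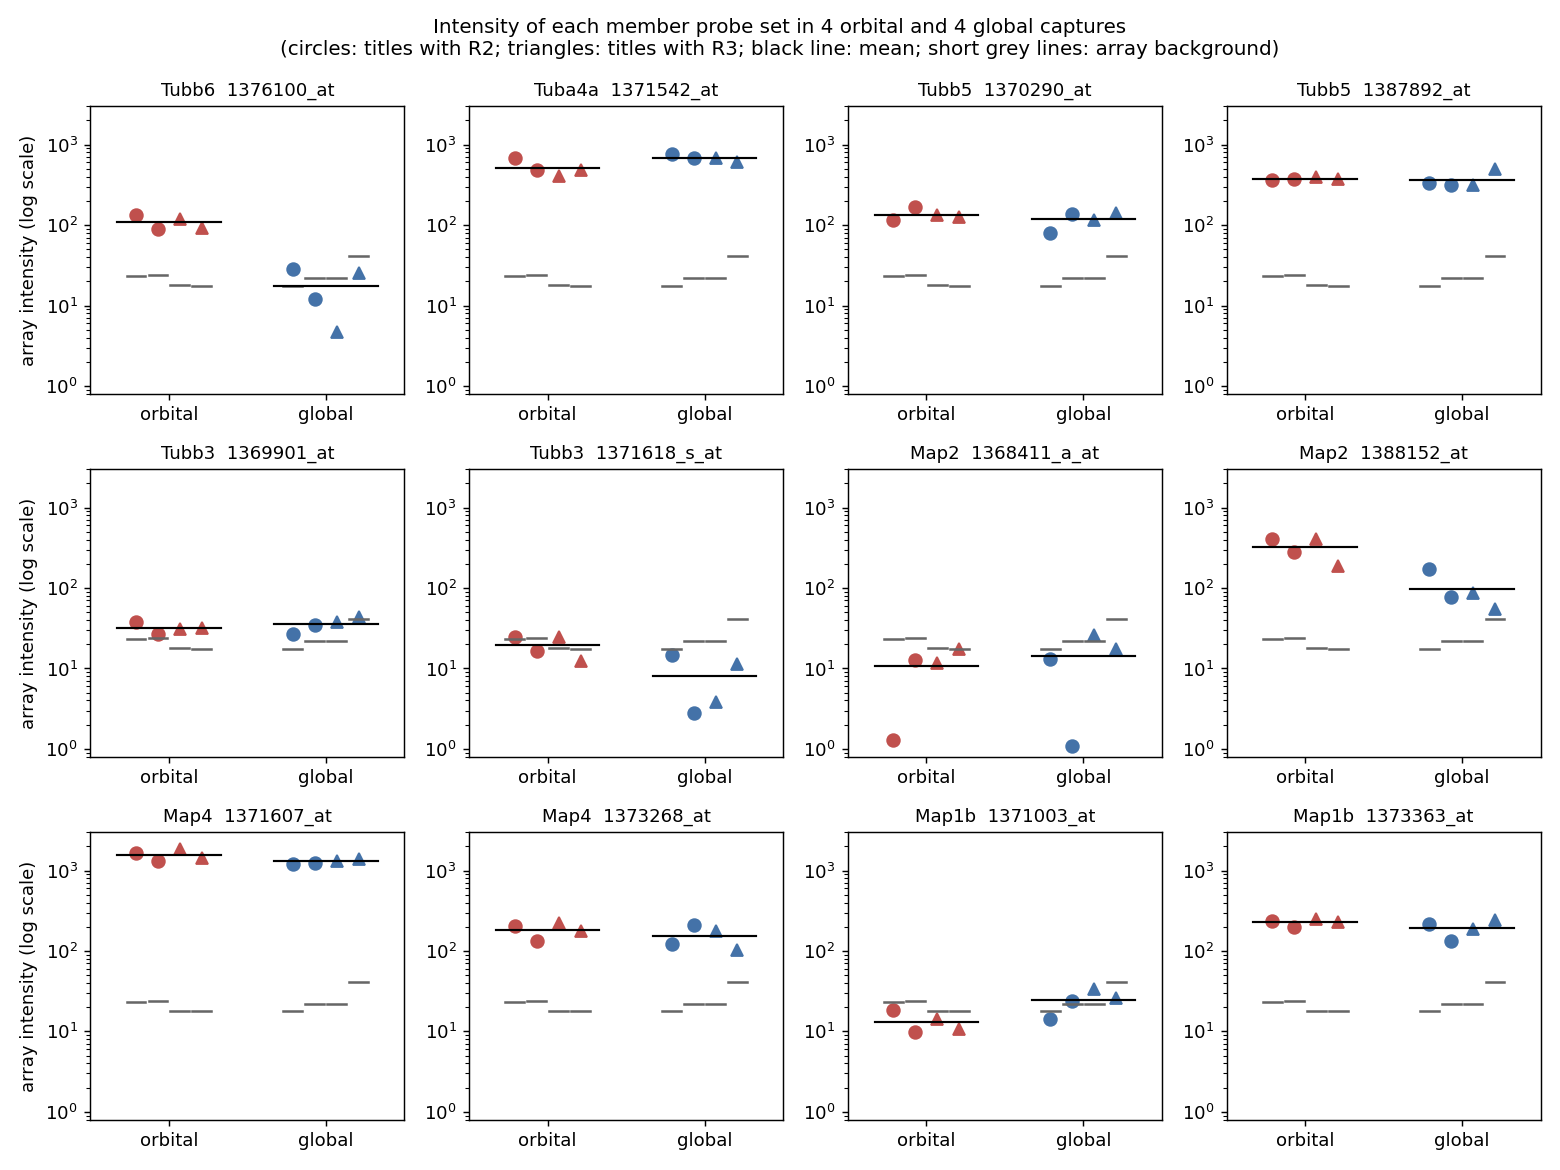
Intensity (log axis) of each member probe set in the 4 orbital captures (red, left) and the 4 global captures (blue, right). Circles are captures whose titles carry R2 and triangles those with R3, the black line is the mean of the layer, and each short grey line is the background of that capture's array. The orbital Tubb6 points lie between 88.8 and 134, and 3 of the 4 global points lie under their background line.

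Tubb6 encodes a class V beta tubulin, a minor isoform in most tissues that is known from mouse muscle to be raised in regenerating and dystrophic fibres. Its intensity was 134, 88.8, 119 and 91.4 in orbital captures 1 to 4, against 28.2, 11.9, 4.7 and 25.1 in global captures 1 to 4. All 4 orbital values lay above the array background, taken as the highest Bacillus subtilis control probe set of each array (17.7 to 24.1 on the orbital and 17.7 to 41.5 on the global arrays). Of the global values, that of capture 1 alone lay above its background. Global capture 4, at 25.1, lay under a background of 41.5, where the backgrounds of all other arrays were 17.7 to 24.1. The count of global values under background rests partly on that array, as does the difference with values raised to background. Orbital Tubb6 averaged 108 ± 22.0 and global Tubb6 17.5 ± 11.1 (SD, n = 4 each), a log2 difference of 2.81 ± 0.44. With 3 of 4 global values under background, this difference is not read as a fold, and its SE takes those values as measured. With every value raised to the background of its array the log2 difference was 1.92, so its size rests on how signal near background is treated, while its direction does not. It was 2.50 between captures whose titles carry R2 and 3.11 between those with R3, a prefix whose meaning the labels do not give. Its geometric mean over the 8 captures was 39.7, just inside the filter limit of 39.4, and 0 of 4 global values were above the 40th percentile of their array.

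Tubb5 encodes the class I beta tubulin found in nearly all cells. At the probe set 1387892_at it had intensities of 367, 369, 401 and 378 in orbital captures 1 to 4, against 332, 312.5, 317 and 499.7 in global captures 1 to 4. The orbital values were close together and lay within the range of the global values, which global capture 4 stretched upwards. The log2 difference was 0.08 ± 0.16. The second probe set, 1370290_at, had 114 to 168 in the orbital and 80.6 to 140 in the global captures, with a log2 difference of 0.21 ± 0.20. At both probe sets of Tubb5 the difference was about the size of its SE or less.

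Tubb3 encodes the class III beta tubulin, a marker of neurons. The probe set 1369901_at had 38.3, 27.0, 30.9 and 32.1 in orbital captures 1 to 4 and 26.7, 34.6, 38.2 and 44.1 in global captures 1 to 4. All 8 values were above the control background but none (0) above the 40th percentile of its array, and the layers overlapped. The probe set 1371618_s_at, whose suffix marks probes that can match transcripts of several genes, had 24.3, 16.6, 24.4 and 12.4 in the orbital captures and 14.7, 2.8, 3.8 and 11.3 in the global captures. Of these, orbital captures 1 and 3 were above background and 0 of 4 global captures were, so no fold is given. Neither probe set was bright enough to be tested.

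Tuba4a encodes the alpha tubulin that lacks the terminal tyrosine of its relatives in the gene itself. Its intensity was 688, 477, 406 and 479.6 in orbital captures 1 to 4, against 759.7, 675.5, 691 and 601 in global captures 1 to 4. It was the 1 member with a tested probe set whose difference was negative (-0.43 ± 0.16). Orbital captures 2, 3 and 4 lay below every global capture, and orbital capture 1 lay among the global values. Without orbital capture 1 the difference was -0.58 and the probe set passed the fit, and under the other 20 alternatives it did not. The difference was -0.32 between captures titled R2 and -0.55 between those titled R3.

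Map2 stabilises microtubules in neuronal dendrites, and is also a widely used neuronal marker. Its probe set 1388152_at had 411, 283, 409 and 188 in orbital captures 1 to 4, against 172, 77.8, 87.0 and 54.8 in global captures 1 to 4. All 8 values were above background, and the lowest orbital capture, 4, was just above the highest global one, 1. Orbital Map2 averaged 323 ± 108 and global Map2 97.9 ± 51.2 (SD, n = 4 each), a log2 difference of 1.77 ± 0.32 or 3.41-fold. It was 1.55 between captures titled R2, where it did not pass the fit of those 4 arrays alone, and 1.99 between those titled R3. The other probe set, 1368411_a_at, had 1.3 to 17.3 in the orbital and 1.1 to 25.9 in the global captures and was above background in 1 capture of 8, global capture 3. With signal this low it gives no second measure of the layer difference.

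Map4 binds along microtubules in nearly all cells. At 1371607_at it had 1675, 1311, 1875 and 1427 in orbital captures 1 to 4, against 1219, 1255, 1322 and 1402 in global captures 1 to 4, and orbital captures 1, 3 and 4 were above every global capture. The log2 difference was 0.26 ± 0.13, and it was also 0.26 between captures titled R2 and between those titled R3. At 1373268_at Map4 had 135 to 223 in the orbital and 103 to 211 in the global captures, with a log2 difference of 0.30 ± 0.23. Map1b, which is made in growing axons and binds microtubules and actin, had 239, 199.9, 251 and 232.5 in orbital captures 1 to 4 at 1373363_at, against 215, 134, 189 and 244 in global captures 1 to 4. The layers overlapped, and the log2 difference was 0.26 ± 0.18. At 1371003_at Map1b had 9.8 to 18.5 in the orbital captures, none (0) above background, and 14.4 to 33.3 in the global captures, 2 of them above background, so neither a fold nor a direction is given.

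**Figure D2:**
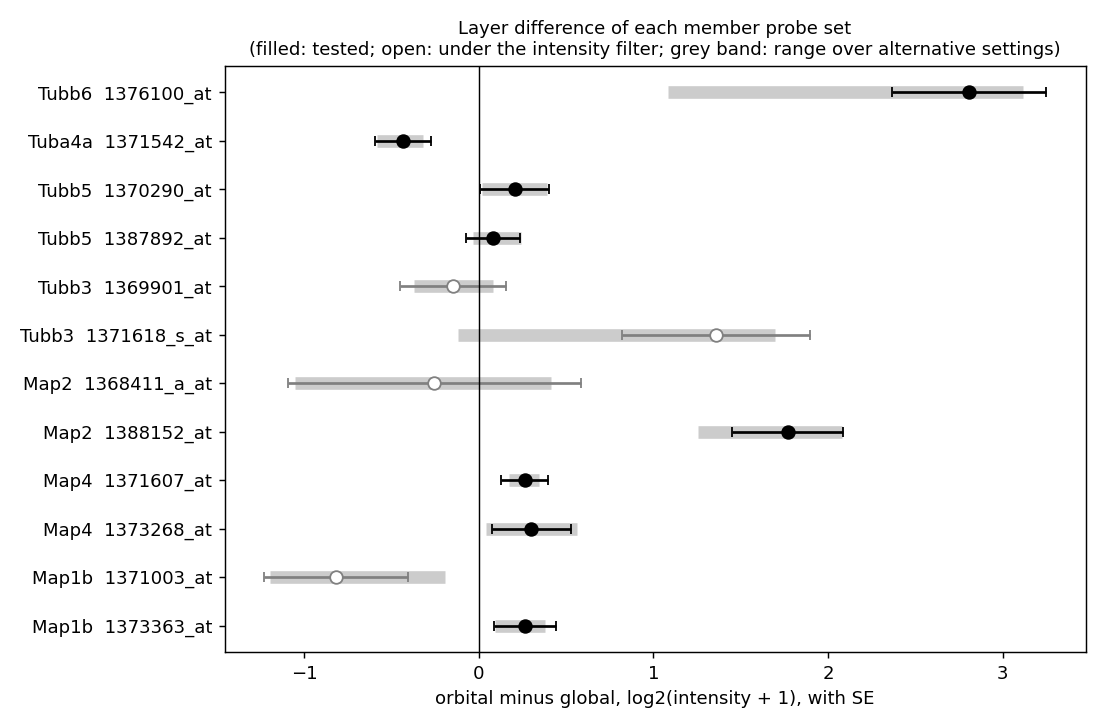
Orbital minus global difference on log2(intensity + 1) of each member probe set (points, horizontal axis), with its standard error (bars) and the range over the alternative settings (grey bands). Filled points passed the intensity filter and open points did not. Tubb6 (2.81) and Map2 1388152_at (1.77) lie far to the right, and the other 6 filled points lie between -0.43 and 0.30.

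For each member with signal above background in at least 6 captures, the genes of most similar pattern were sought by the root mean square difference of log2 values, each centred on its own mean over the 8 captures, among 7971 to 7973 tested probe sets of other genes. For Map2 these were Lratd1 (0.34), Mt3 (0.39) and Scg5 (0.40), which differed between the layers by 1.71, 2.12 and 1.71 on the log2 scale. A layer difference near that of Map2 follows from the way these genes were picked and is no separate result. For Tuba4a they were Gcsh, Pqbp1 and Tmf1 at distances of 0.10 to 0.11. For Tubb5 they were Degs1, Clptm1 and Api5 (0.07 to 0.08), and for Map4 Glyr1, Leo1 and Keap1 (0.06). For Map1b they were Slc6a8, Slc27a1 and Pelp1 (0.07 to 0.10), and for Tubb3 Hgh1, Tafazzin and Smim11 (0.08 to 0.11). The Tubb3 probe set used here, 1369901_at, had itself not passed the intensity filter. The short distances of the last 5 members are those of patterns that vary little, and the captures share the scaling of their arrays. Tubb6 was above background in 5 captures and was left out.

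**Figure D3:**
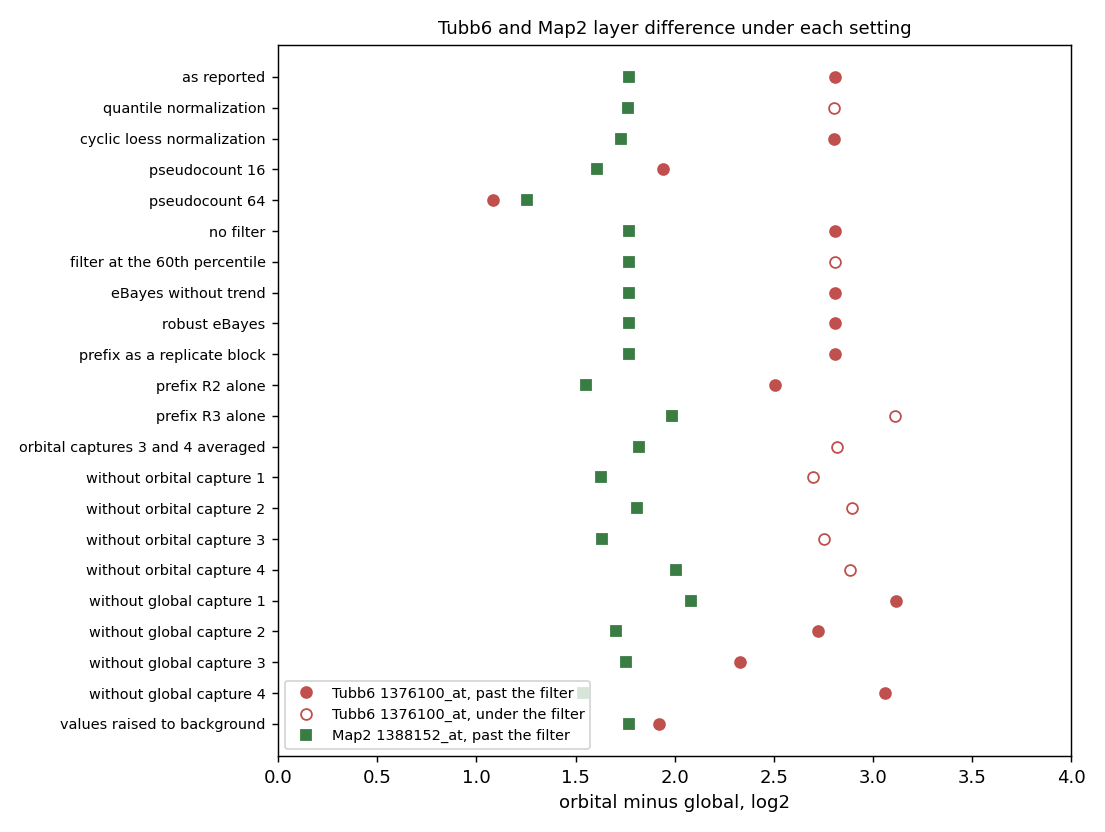
Orbital minus global log2 difference (horizontal axis) of Tubb6 1376100_at (red circles) and Map2 1388152_at (green squares) as reported and under each alternative setting (rows). Filled symbols passed the intensity filter and open ones did not. Tubb6 ranges from 1.08 with a pseudocount of 64 to 3.12 without global capture 1, and Map2 from 1.26 to 2.08.

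Beyond the members, 117 genes of the microtubule system were on the array, in 7 lists of tubulins, associated proteins, destabilisers, folding factors, modifying enzymes, motors and organising centres. Of the 98 that were bright enough to be tested, each by its brightest probe set, 3 rose and 4 fell in the orbital layer and 91 did not pass (limma, adjusted p under 0.05). Over all 7163 genes tested in this way 7.68% passed, 4.09% as higher and 3.59% as lower in the orbital layer. The median log2 difference was 0.04 over the 98 genes and 0.02 over all 7163. Those that rose were Tacc1, Mid2 and Tubb2a, and those that fell were Tuba8, Agtpbp1, Eml1 and Pfdn2.

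Of 5 other tubulins measured, 1 fell and 1 rose. Tuba8, an alpha tubulin known from heart, skeletal muscle and testis, had 151, 264, 200.2 and 449.5 in orbital captures 1 to 4, against 688.5, 695, 549 and 933 in global captures 1 to 4. The layers did not overlap, and every orbital value lay below every global one. The log2 difference was -1.52 ± 0.27 (limma, adjusted p = 0.00381), -1.79 between captures titled R2 and -1.25 between those titled R3, where it did not pass in those 4 arrays alone (adjusted p = 0.123). Tubb2a, a beta tubulin abundant in brain and present in muscle, had 692, 671, 944 and 719 in the orbital captures and 524, 547, 534 and 466 in the global captures. It rose by 0.53 ± 0.13 (limma, adjusted p = 0.0279), and did not pass when orbital capture 3 or global capture 1, 3 or 4 was left out (adjusted p 0.0586 to 0.0778). Tubb4b, a beta tubulin of most tissues, had 1293 to 1495 in the orbital and 1051 to 1279 in the global captures and did not pass (0.29 ± 0.12, adjusted p = 0.166). Tubb2b differed by 0.22 ± 0.27 and Tubg1, the gamma tubulin that nucleates microtubules, by 0.05 ± 0.17. Because tubulin genes resemble each other closely, probes of one may catch transcript of another, and the separate level of each tubulin here is uncertain.

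**Figure D4:**
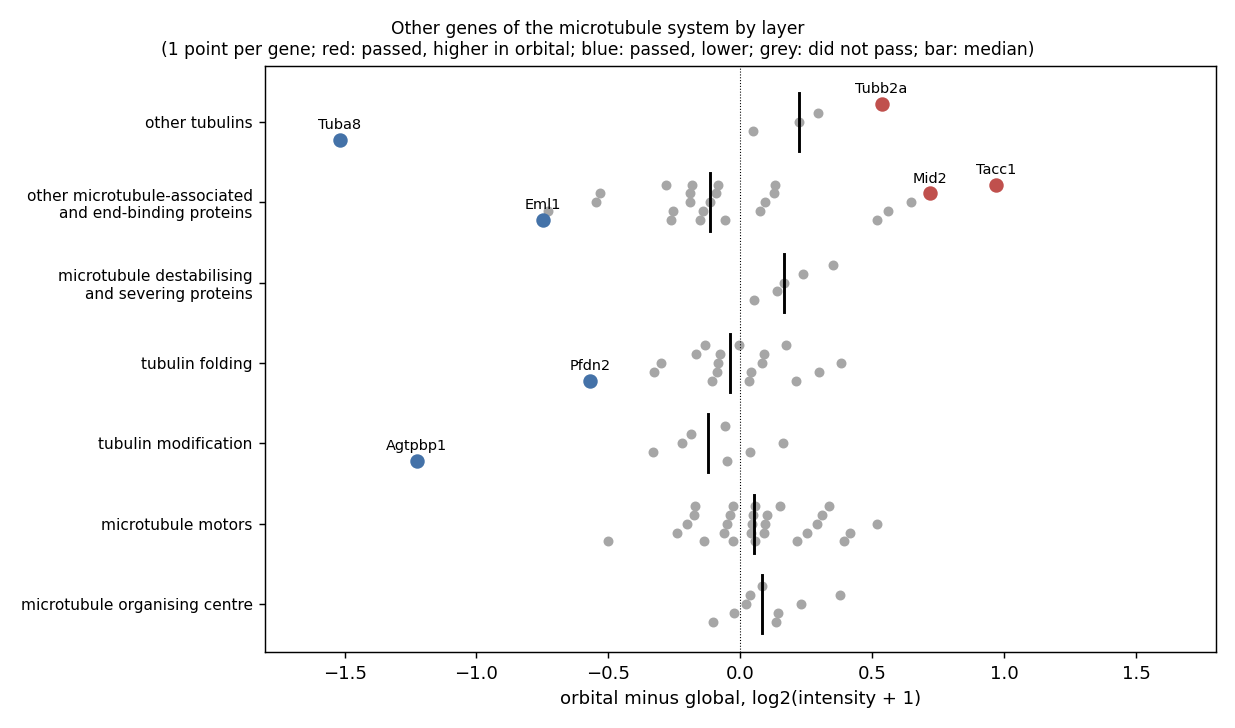
Orbital minus global difference on log2(intensity + 1) (horizontal axis) of 98 other genes of the microtubule system, 1 point per gene, in rows by list. Red points passed as higher and blue points as lower in the orbital layer, grey points did not pass, and the black bar is the median of the list. The 7 coloured points range from -1.52 (Tuba8) to 0.97 (Tacc1), and the medians lie between -0.12 and 0.22.

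Among other microtubule-associated and end-binding proteins, 2 of 25 tested genes rose and 1 fell. Tacc1, a coiled-coil protein of centrosomes and microtubule ends, had 257, 223, 253 and 210.2 in orbital captures 1 to 4, against 109, 113, 99.6 and 165 in global captures 1 to 4 (0.97 ± 0.17, limma, adjusted p = 0.00351). Mid2, a ubiquitin ligase that binds microtubules, rose by 0.72 ± 0.18 (limma, adjusted p = 0.0276), a call lost without any 1 of orbital captures 1, 2 and 3 or global captures 3 and 4 (adjusted p 0.0652 to 0.0794). Eml1, a protein that binds along microtubules, had 226, 243, 226 and 259 in the orbital captures, against 423, 373, 462 and 353 in the global captures (-0.75 ± 0.13, limma, adjusted p = 0.00335). For Tacc1 and Eml1 the layers stood apart without overlap, and neither passed in the 4 arrays of either title prefix alone. The ubiquitin ligase Trim63, a sarcomere protein that also binds microtubules, missed the threshold (-0.73 ± 0.21, adjusted p = 0.0538), while 7 of 21 alternatives called it, the title prefix as a block included (adjusted p = 0.0237). Map1a, the relative of Map1b in mature neurons, differed by 0.56 ± 0.18 (adjusted p = 0.0910), Mapt, the neuronal protein tau, by -0.26 ± 0.13 and Trim54, a muscle relative of Trim63, by -0.09 ± 0.19. The median of the list was -0.12.

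Agtpbp1, the enzyme that shortens the glutamate side chains of tubulin tails, gave the smallest p of all 98 genes. Its intensity was 151, 229, 164 and 197 in orbital captures 1 to 4, against 421.5, 392, 435 and 471 in global captures 1 to 4, with no overlap. It fell by 1.23 on the log2 scale, with an SE of 0.15 (limma, adjusted p = 0.000304), and did not pass in the 4 arrays titled R2 alone (adjusted p = 0.0765). Of the 8 tubulin-modifying enzymes tested it was the 1 that passed, and the glutamylases Ttll5 and Ttll7 differed by -0.33 ± 0.21 and -0.22 ± 0.16, Ttl, which adds the terminal tyrosine, by -0.06, and Vash1 and its partner Svbp, which remove it, by -0.05 and 0.04. Of 18 folding factors 1 fell and 0 rose. That was Pfdn2, a subunit of prefoldin, which hands new tubulin to its chaperonin, with 199 to 271 in the orbital and 260 to 413 in the global captures (-0.57 ± 0.16, limma, adjusted p = 0.049992), a call lost under 11 of 21 alternatives. The tubulin cofactor Tbce differed by 0.38 ± 0.15 (adjusted p = 0.171), the chaperonin subunit Tcp1 by -0.33 ± 0.15 (adjusted p = 0.221) and the prefoldin subunit Pfdn6 by 0.30 ± 0.12 (adjusted p = 0.185).

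Motors, destabilisers and organising centres gave no calls. Of 28 motor genes 0 passed in limma, with 3 at an unadjusted p under 0.05. The kinesin Kif1c had 829 to 973 in the orbital and 1007 to 1591 in the global captures, without overlap (-0.50 ± 0.15, adjusted p = 0.0617), while 3 of 21 alternatives called it, the title prefix as a block included (adjusted p = 0.0304). The dynein regulator Pafah1b1 differed by 0.42 ± 0.16 (adjusted p = 0.135), the dynactin subunit Actr1a by 0.31 ± 0.13 (adjusted p = 0.172) and the neuronal kinesin Kif5a by 0.39 ± 0.20 (adjusted p = 0.282). Of 5 destabilising and severing genes 0 passed, with 0 at an unadjusted p under 0.05, and the stathmin Stmn1 differed by 0.35 ± 0.20, Stmn4 by 0.14 ± 0.18, Stmn3 by 0.24 ± 0.44 and the kinesin Kif2a by 0.17 ± 0.27. Of 9 organising centre genes 0 passed, with 0 at an unadjusted p under 0.05. Syne1, the nesprin that recruits organising proteins to the nuclear envelope of muscle, differed by 0.38 ± 0.19 (adjusted p = 0.275), Tubgcp6, a subunit of the gamma tubulin ring, by 0.23 ± 0.15 and the centrins Cetn2 and Cetn3 by 0.14 ± 0.13 and 0.14 ± 0.16.

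Several members are also known from cells other than muscle fibres, so marker lists were read beside them. Of 12 nerve markers on the array 4 were bright enough to be tested, and 1 rose, the neurofilament Nefm. It had 238, 224, 223 and 145 in orbital captures 1 to 4, against 53.4, 110.5, 164 and 56.5 in global captures 1 to 4 (1.23 ± 0.31, limma, adjusted p = 0.0291). Its layers overlapped, and the call was lost under 10 of 21 alternatives, among them leaving out orbital capture 1, 2 or 3 or global capture 1 or 4 (adjusted p 0.0719 to 0.0829). All 4 tested nerve differences were positive, with a median of 0.74 and 2 at an unadjusted p under 0.05. Gap43 differed by 0.70 ± 0.26 (limma, adjusted p = 0.125), Snap25 by 0.78 ± 0.68 and Eno2 by 0.18 ± 0.22, without passing. Snap25 was negative between captures titled R3 (-0.19) and Eno2 between those titled R2 (-0.20). The nerve markers summed to 638 to 863 in the orbital and 445 to 647 in the global captures, and Chga was under background in all 8. Of 7 Schwann cell markers tested 1 rose (Cnp, a call lost under 3 of 21 alternatives, without orbital capture 3 among them, adjusted p = 0.0510), and the list summed to 2779 to 5505 in the orbital and 1513 to 5156 in the global captures. Of the 7 Schwann cell differences 6 were positive and 1 negative, with a median of 0.46. The part of nerve in the Map2 values was not tested.

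Of 8 satellite cell and myoblast markers tested 3 rose (the neonatal and embryonic myosins Myh8 and Myh3 and the regulator Myf6) and 0 fell. The Myh3 call was lost under 11 of 21 alternatives, among them leaving out any 1 orbital capture or global capture 1 (adjusted p 0.0511 to 0.0774), and the Myf6 call under 5, among them leaving out orbital capture 1 or 2 or global capture 3 (adjusted p 0.0522 to 0.0580). The list summed to 19768 to 27722 in the orbital and 5096 to 13033 in the global captures. These sums did not overlap between the layers, and Myh3 and Myh8 made up 83.4% to 90.1% of them in the orbital and 51.8% to 83.9% in the global captures. Of the 8 tested differences 7 were positive and 1 negative, with a median of 0.51 and 6 at an unadjusted p under 0.05. Without passing, Chrna1 differed by 1.05 ± 0.31 (limma, adjusted p = 0.0566), and 6 of 21 alternatives called it. The others that did not pass were Vim (0.39 ± 0.17), Des (0.29 ± 0.22) and the regulators Myog (0.03 ± 0.17) and Myod1 (-0.61 ± 0.27). Myh3 had 9371 to 13788 and Myh8 7120 to 11183 in the orbital captures, against 213.5 to 6630 and 2333 to 4302 in the global captures. The fibre marker Mb had 7140 to 9789 in the orbital and 4640 to 5219 in the global captures. Whether fibres or myoblasts gave the Myh3 and Myh8 signal was not tested. Of 5 photoreceptor markers 1 rose (Guca1a), with sums of 1463 to 3286 in the orbital and 366 to 1475 in the global captures. Guca1a had 1028 to 1664 in the orbital and 208 to 450 in the global captures, a large part of these sums. All 5 differences were positive, but the other 4 genes did not pass and overlapped between the layers. Of these, Sag had 138 to 802 in the orbital and 2.2 to 389 in the global captures. Of 10 endothelial and smooth muscle markers Eng rose and Myh11 fell, with sums of 1290 to 1906.5 in the orbital and 1632 to 1795 in the global captures. Without passing, the endothelial Flt1 lay higher (0.58 ± 0.18) and the smooth muscle Tagln lower (-0.73 ± 0.25), both without overlap. The sums thus pool genes of 2 cell types, some higher and some lower in the orbital layer. The Eng call was lost under 6 of 20 alternatives, among them leaving out orbital capture 2 or 3 or global capture 1 or 3 (adjusted p 0.0523 to 0.0676). Of 9 fibroblast markers 0 passed (limma), with 4 at an unadjusted p under 0.05, and the sums were 6344 to 9515 in the orbital and 4839 to 8922 in the global captures. Of 6 dividing cell and 8 macrophage and blood markers 0 passed, with 0 at an unadjusted p under 0.05. Dividing cell markers summed to 772 to 989 in the orbital and 677 to 1220 in the global captures, with Tyms under background in all 8, and macrophage and blood markers to 1475 to 2257 in the orbital and 1456 to 3264 in the global captures. The part of these cell types in the tubulin values was not tested.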

How the data were processed

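Laser-captured tissue gave RNA that was amplified by a T7-based method and run on 1-colour Affymetrix RAE230A arrays, per the labels' protocols. The deposited values are linear, 1 intensity for each probe set on an array, and the software behind them is not given in the sources used here. The 2% trimmed means of the deposited arrays differed by 0.00389%, so they had been scaled, and no further normalization was applied.

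Captures were grouped by layer from the labels and numbered in accession order. After removal of 57 control probe sets from 15923, 9520 of the remaining 15866 were tested, those with a mean log2 value at or above the 40th percentile. The model had the layer alone and was fitted to log2(intensity + 1) by lmFit and eBayes with intensity trend (limma 3.58.1, R 4.3.3), with p-values adjusted after Benjamini and Hochberg. The 27 Bacillus subtilis controls gave the background. The fit was tested on simulated data with independent captures, which says nothing on captures that share an animal. Names came from the 2016 annotation of the platform, where 12783 probe sets had a single symbol, 312 had several and 2771 had none. A current gene table held 12748 of the 12783, and 0 symbols changed.

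The members, gene lists and tests were chosen with earlier results of these data known. The rule for names took all members and, in each list, up to 4 genes with the smallest p. Map1a, Mapt, Trim54, Tubg1, Ttl, Vash1, Svbp, Myod1, Myog, Vim, Des, Chga and Tyms lie outside it, chosen once their values had been seen. Alternatives were 2 normalizations, 2 pseudocounts, 2 filters, 2 variance models, 3 uses of the title prefix, orbital captures 3 and 4 averaged (their titles are nearly the same), each capture left out and, chosen after seeing the data, values raised to background.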

Additional observations from a re-analysis of the deposited data

Results flagged for a closer look

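Of 152 groups of 4 captures examined for members and named genes (Dixon's criterion), 7 held a capture far from the other 3, and chance gives about 1 in 20. Among the members this was Tubb5 (1387892_at) in global capture 4, with 499.7 against 312.5 to 332 in the other global captures. Vash2 had 278 in orbital capture 2 against 166 to 179, and Pmp22 had 3840 in that capture against 1769 to 1961. In orbital capture 4 Nefm had 145 against 223 to 238 and Cnp 189 against 308.5 to 340. Mcm3 had 39.7 in global capture 3 against 55.7 to 59.0, and Pvalb 35.9 in orbital capture 1 against 122 to 157.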

How the results depend on the processing

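The differences of the 12 member probe sets moved by less than the spread between captures in 245 of 252 alternative values. These 245 include the 2 filters, the 2 variance models and the prefix as a block, which cannot change a difference and so show nothing of its stability. Of the 252 values 6 had another sign than reported, all of probe sets that had not passed. Tubb6 differed by 1.94 and 1.08 with pseudocounts of 16 and 64. It lay under the intensity filter in 8 of 21 alternatives, where its difference alone was computed. So 1 member probe set instead of 2 passed as higher with quantile normalization, with the filter at the 60th percentile, with captures titled R3 alone, with orbital captures 3 and 4 averaged, and without any 1 orbital capture (1 to 2 over all captures left out). With captures titled R2 alone it was also 1, Tubb6, and Map2 did not pass. As lower, 0 to 1 passed with captures left out (Tuba4a). Of the other microtubule genes 1 passed as higher without an intensity trend, and 0 as higher and 1 as lower in each prefix alone. Leaving out captures gave 1 to 4 as higher, with 1 without orbital capture 3, global capture 3 or global capture 4, and 3 to 5 as lower. All probe sets called numbered 106 in R2 alone, 170 in R3 alone and 461 to 725 with captures left out, 461 without global capture 3, against 705. The prefix as a replicate block gave 745 calls, 2 members as higher, and 3 microtubule genes as higher and 6 as lower, since Trim63 and Kif1c then passed. Deviations of captures with the same prefix in different layers correlated with r of -0.01 to 0.11 over probe sets, and those with different prefixes with -0.13 to 0.04. Of the 64 other named genes 8 took the other sign under at least 1 alternative, 0 of them among the 18 called, and 75 of their values lost and 36 gained a call. Values near background, above all Tubb6, Tubb3 and the dim probe sets of Map2 and Map1b, limit what can be read from their size.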
